A study of Homo sapiens with 4 samples.

Results

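Open chromatin of SKBR3, a breast cancer line with amplified HER2, was set against that of T47D, a breast cancer line positive for hormone receptors, over the strongest ATAC-seq peaks of each. ATAC-seq marks accessible DNA with a transposase that inserts sequencing adapters, and a peak is a place where the resulting reads (tags) pile up. Peaks on chromosomes 1 to 22 were ranked by pileup, the number of tags stacked at the summit, and the 30000 highest of each list were taken as strong, with ties settled by longer peaks and then by position. A strong peak was called in 1 line when no peak of any strength in the other line's list overlapped it by 1 bp, and shared otherwise. The 60000 strong peaks, out of 299609 peaks in the 4 lists of the series, fell into 6804 called in SKBR3 and not in T47D, 4046 called in T47D and not in SKBR3, 23196 SKBR3 peaks shared with T47D and 25954 T47D peaks shared with SKBR3.

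The series profiled 4 unmodified cancer lines, described as wild type, with 1 library of single-end 60-bp reads each, in work on how FOS family proteins control PVRL4 (NECTIN4). SKBR3 was grown in McCoy's 5A medium and T47D in RPMI. The colorectal lines HCT116, grown in McCoy's 5A, and RKO, grown in DMEM, were used here only to ask whether a breast peak was also called outside the pair. With 1 library per line no test between the lines was possible, so line, medium and library cannot be told apart, and every 95% interval below is an exact Clopper-Pearson interval that covers counting error only.

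HER2, the receptor tyrosine kinase encoded by ERBB2, drives growth in a subset of breast cancers through extra copies of a stretch of chromosome 17 that carries neighbouring genes with it. Hormone receptor positive tumours depend instead on the estrogen receptor encoded by ESR1, which induces the progesterone receptor gene PGR and binds chromatin together with the luminal factors FOXA1 and GATA3. SKBR3 lacks estrogen receptor and T47D carries both receptors, and both lines are classed as luminal in origin. In ATAC-seq, more copies of a locus and more open DNA per copy raise pileup alike and cannot be told apart here.

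After removal of duplicate positions SKBR3 held 4313512 tags and T47D 5450100, with 47% and 49% of tags removed, against 1057628 in HCT116 and 3262240 in RKO. The SKBR3 list was longer all the same, with 108561 peaks on chromosomes 1 to 22 against 75390 in T47D. Both lists were called at a q-value of 0.1. Because 1 tag was kept per position and strand, pileup could not pass 234 in SKBR3 or 220 in T47D, and the highest values were 196 and 195. The strong class ended at a pileup of 13 in SKBR3, where 1262 of 2729 tied peaks were inside, and at 15 in T47D, where 1091 of 1814 were inside. The last SKBR3 peak inside was chr5:443056-443319 (fold 7.10 over local background) and the first outside chr8:88081631-88081894 (fold 9.24). In T47D they were chr9:124096758-124096965 (fold 11.1) and chr11:20385490-20385697 (fold 9.45).

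Of the strong SKBR3 peaks 22.7% (interval 22.2 to 23.2) had no T47D call, and of the strong T47D peaks 13.5% (13.1 to 13.9) had no SKBR3 call. These shares follow from the rule and from the lengths of the lists. With the SKBR3 list shortened to the 75390 peaks of T47D the T47D share was 16.1%. Among the weaker peaks the shares were 64.4% of 78561 in SKBR3 and 45.6% of 45390 in T47D. The 1-line peaks were lower and narrower than the shared ones in both lists. A longer peak has more room to overlap another by 1 bp, so the gap in length follows in part from the rule. Pileup was the value that ranked the lists. In SKBR3 the median pileup was 18 against 23, the median fold over local background 9.68 against 11.6, and the median length 314 against 390 bp. In T47D the medians were 20 against 30 for pileup, 8.14 against 13.3 for fold and 246 against 383 bp for length. Local background, as a multiple of the genome-wide level of its own library, had a median of 6.21 at 1-line and 6.54 at shared peaks in SKBR3. In T47D it was 8.92 at 1-line peaks against 6.78 at shared peaks, so the T47D peaks without an SKBR3 call stood on a higher floor.

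**Figure D1:**
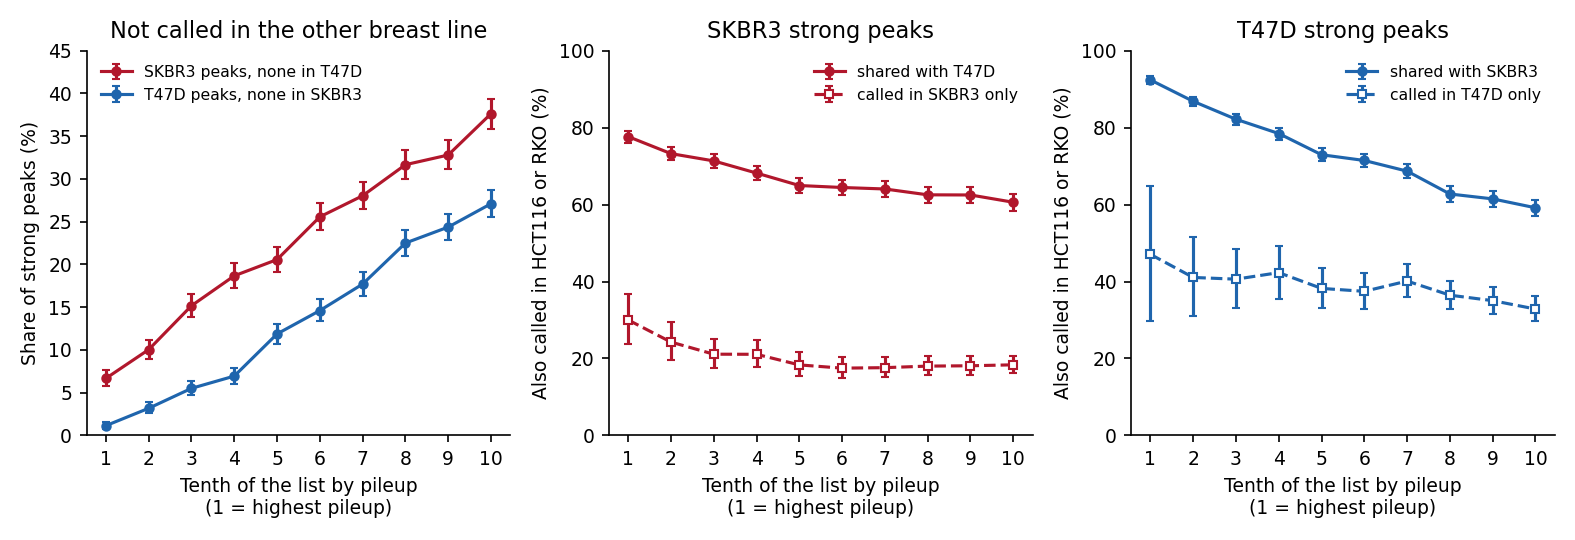
Strong peaks of each list in groups of 3000 peaks from highest to lowest pileup: share not called in the other breast line (left), and share also called in HCT116 or RKO among SKBR3 peaks (middle) and T47D peaks (right), in percent, with exact 95% counting intervals. The share not called in the other line goes up from 6.67% to 37.6% in SKBR3 and from 1.13% to 27.1% in T47D, and 1-line peaks lie below shared peaks in every group of both other panels.

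The share without a call in the other line depended on rank. Among the 3000 peaks of highest pileup it was 6.67% in SKBR3 and 1.13% in T47D, which is 200 and 34 peaks. In the last 3000 it was 37.6% and 27.1%. The SKBR3 share was the higher in each group of 3000, as the plot of peaks by rank shows.

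Calls in the colorectal lines, which the rule did not use, divided the classes more sharply. Of the SKBR3 peaks absent from T47D 19.1% (18.1 to 20.03) were called in HCT116 or RKO, against 67.6% (67.0 to 68.2) of the shared SKBR3 peaks and 56.6% of all strong SKBR3 peaks. Of the T47D peaks absent from SKBR3 36.9% (35.4 to 38.4) were called in a colorectal line, against 74.7% (74.2 to 75.2) of the shared ones and 69.6% of all strong T47D peaks. The gap between the classes of 1 list was present in every group of 3000. At the top it was 30% against 77.7% in SKBR3 and 47.1% (29.8 to 64.9) against 92.4% in T47D. At the bottom it was 18.3% against 60.6% and 32.8% against 59.2%. The 1-line SKBR3 peaks were called in HCT116 at 11.6% and in RKO at 14.4%, and the 1-line T47D peaks at 18.1% and 31.3%. Over all strong peaks these shares were 49.0% and 50.3% in SKBR3 and 58.1% and 62.7% in T47D. Among 1-line peaks and among all strong peaks alike, the lines differed more in RKO, the deeper colorectal library, than in HCT116.

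A shared call did not always mean a strong peak in both lines. Of the shared SKBR3 peaks 77.4% (17952) met a T47D peak that was itself among the strong, and of the shared T47D peaks 68.9% (17875) met a strong SKBR3 peak. Spearman's rank correlation of pileup rank between overlapping peaks was 0.476 over the 23196 SKBR3 peaks and 0.602 over the 25954 T47D peaks, given as a description, since neighbouring peaks share library and background. A partner outside the strong class was found for 220 of the top 3000 SKBR3 peaks and for 68 of the top 3000 T47D peaks. The shared peaks with the highest joint rank were 4 peaks between 564486 and 570029 on chromosome 1, a stretch of the reference known to hold a nuclear copy of mitochondrial DNA. Their pileups were 179 to 196 in SKBR3 and 177 to 195 in T47D, with folds of only 2.53 to 2.85, and all were called in HCT116 and RKO too. The fifth, chr13:110076418-110076755, had a pileup of 158 and a fold of 39.9 in SKBR3 and 162 and 41.3 in T47D, and was also called in both colorectal lines.

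The strongest peaks without a call in the other line differed in where they lay. Of the 8 highest in SKBR3, 4 were on chromosome 8, 3 in the 1 Mb bin of ERBB2 and 1 on chromosome 10. None was called in HCT116 or RKO, against 30% of the 1-line peaks in the top 3000 and 56.6% of all strong SKBR3 peaks. The first was chr8:124007300-124008105, with a pileup of 91, a fold of 17.2 and the nearest T47D summit 6566 bp away. The second was chr17:37843196-37843722, beside the upstream end of ERBB2 by its textbook hg19 placement, with a pileup of 88 and a fold of 10.7, and a T47D summit 786 bp away. A T47D peak thus stood beside it without touching it. A peak at chr8:124178402-124178874 reached a pileup of 83 and a fold of 19.1.

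In T47D the 8 highest lay on chromosomes 11 (4 peaks), 16 (2) and 17 (2). A colorectal line called 4 of them, against 47.1% of the 1-line peaks in the top 3000 and 69.6% of all strong T47D peaks. With 8 peaks per line these counts are too small to compare. The first, chr16:85498150-85499047, had a pileup of 97 and a fold of 5.97 on a local background 74.8 times the genome-wide level, with an SKBR3 summit 902 bp away. The second, chr11:134509697-134510192, had a pileup of 91 and a fold of 17.3 and was called in HCT116 and RKO. The peak chr11:101312416-101313097, in the bins of PGR, had a pileup of 72 and a fold of 17.4, with no SKBR3 summit within 10515 bp and no colorectal call.

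**Figure D2:**
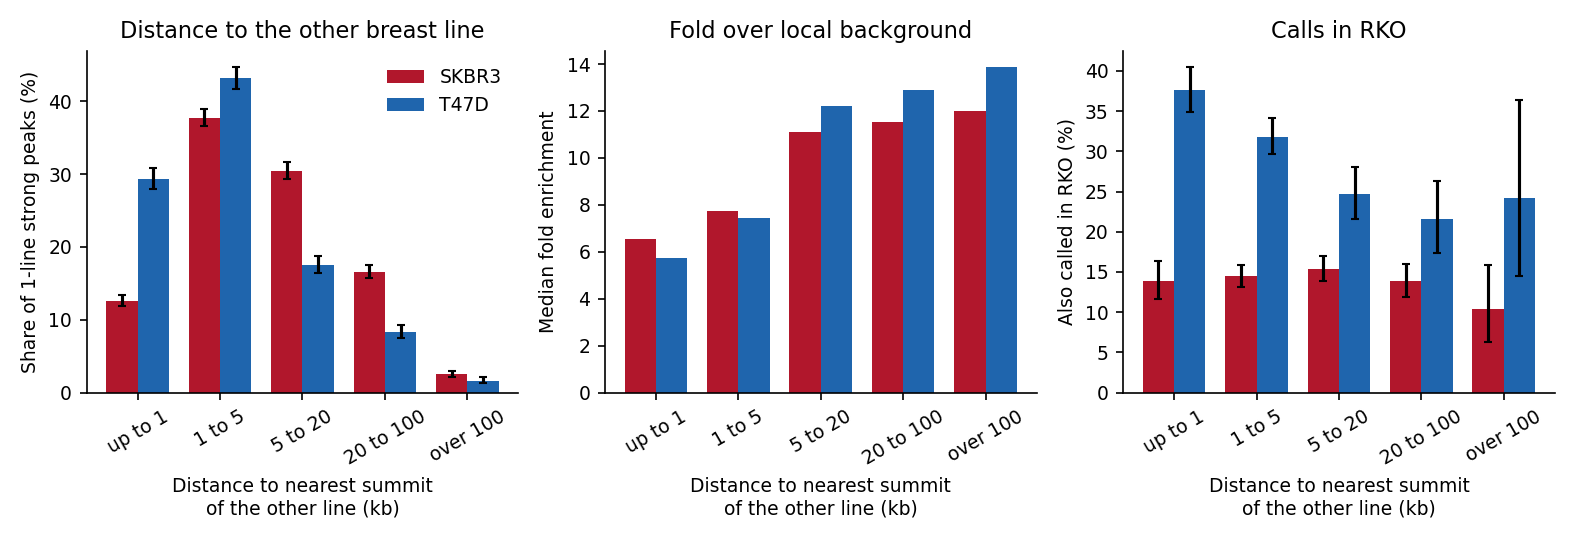
Peaks called in 1 breast line, grouped by distance in kb from their summit to the nearest summit of the other line: share of the class in percent (left), median fold over local background (middle) and share also called in RKO in percent (right), with exact 95% counting intervals on the shares. Within 1 kb lie 29.3% of the T47D peaks and 12.6% of the SKBR3 peaks, and both have lower folds there than beyond 5 kb.

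Many 1-line peaks stood next to a peak of the other line. The median distance from the summit to the nearest summit of the other line was 4959.5 bp for the SKBR3 peaks (quartiles 1930 and 14762) and 2182 bp for the T47D peaks (884 and 5726). Of the T47D peaks 29.3% (27.9 to 30.8) had an SKBR3 summit within 1 kb, while 12.6% (11.9 to 13.5) of the SKBR3 peaks had a T47D summit that near. Those near peaks were narrow and low over their surroundings. A summit that near without overlap leaves less room for long peaks, so the short lengths follow in part from the class. In T47D their median fold was 5.73 and their length 212 bp, on a background of 13.6 times the genome-wide level. In SKBR3 the values were 6.56, 254 bp and 11.9 times.

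Peaks more than 5 kb from any summit of the other line numbered 3377 in SKBR3 (49.6% of the class) and 1113 in T47D (27.5%). They had median folds of 11.3 and 12.5 and lengths of 345 and 317 bp, nearer to those of the shared peaks. RKO called 37.7% (34.9 to 40.5) of the T47D peaks within 1 kb and 23.7% (21.2 to 26.3) of those beyond 5 kb. For SKBR3 peaks the RKO share was 13.8% (11.6 to 16.3) within 1 kb and 14.6% (13.4 to 15.8) beyond 5 kb. In HCT116 the share was lower near than far for both classes, at 13.5% and 19.05% for T47D and at 7.33% and 13.0% for SKBR3. The whole T47D class had 31.3% in RKO and 18.1% in HCT116, and the whole SKBR3 class 14.4% and 11.6%.

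**Figure D3:**
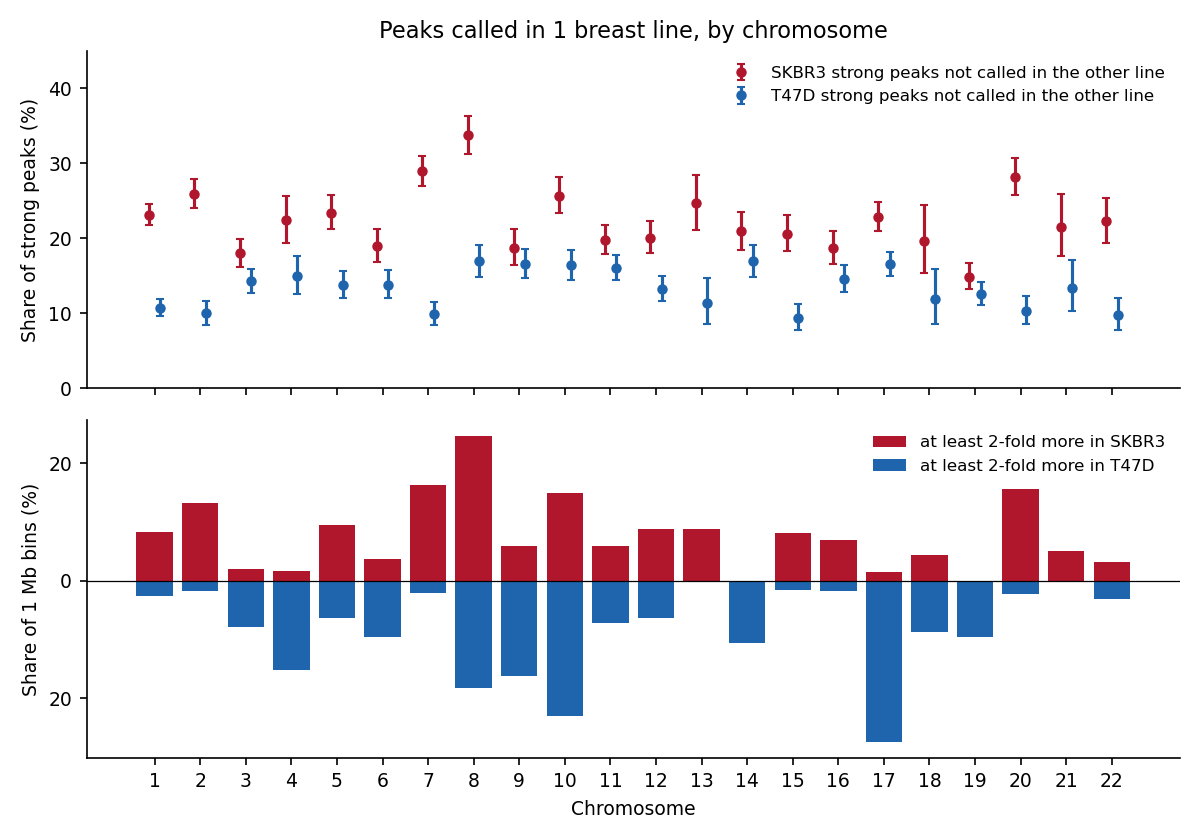
By chromosome, share of strong peaks not called in the other breast line, in percent with exact 95% counting intervals (top), and share of tested 1 Mb bins with at least 2-fold more strong peaks in SKBR3 (upward bars) or T47D (downward bars), in percent (bottom). Chromosome 8 has the highest SKBR3 share, 33.7%, and the most SKBR3 bins, while chromosome 17 leads the T47D bins with 27.5%.

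Chromosomes differed in how many strong SKBR3 peaks lacked a T47D call. The share was 33.7% (31.2 to 36.3) on chromosome 8, 28.9% (26.9 to 30.9) on chromosome 7 and 28.2% (25.8 to 30.6) on chromosome 20, and lowest on chromosome 19 at 14.9% (13.2 to 16.7). For T47D the span was narrower. It ran from 9.37% (7.70 to 11.3) on chromosome 15 to 16.9% on chromosomes 8 and 14. Chromosome 8 was thus at the top for both lines.

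Peaks of 1 line also neighboured each other. After a strong SKBR3 peak absent from T47D, the next strong SKBR3 peak on the chromosome was of the same kind in 32.3% (31.2 to 33.5) of cases, against 19.9% (19.3 to 20.4) after a shared peak. In T47D the shares were 21.04% (19.8 to 22.3) and 12.3% (11.9 to 12.7). With the strong peaks of both lines ordered together, runs of a single 1-line class with 5 or more peaks numbered 70 in SKBR3 and 22 in T47D, and 73.6% and 83.5% of runs were single peaks.

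The longest SKBR3 run, 16 peaks at chr8:128414284-128639463, lay before MYC, in a stretch long known for enhancers of that oncogene. T47D had 1 peak of any strength in those 225180 bp, SKBR3 25, HCT116 2 and RKO 6. The next were 13 peaks at chr7:37287512-37872182, which overlaps ELMO1, an adaptor for cell engulfment and migration, and 10 at chr16:50420128-50626594, beside NKD1, an inhibitor of WNT signalling. Both remaining runs had 9 peaks and lay on chromosome 20, at 22788357 to 23167779 and at 56385961 to 56563137. These 5 stretches held 1 or 2 T47D peaks each.

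The longest T47D run had 32 peaks and crossed 2758157 bp of chromosome 19, from 21512034 to 24270190, in a cluster of KRAB zinc finger genes, whose products are DNA-binding repressors. T47D had 69 peaks of any strength there, RKO 75, SKBR3 11 and HCT116 10. A run of 8 peaks lay in the same cluster, from 20748216 to 21203899. Their median folds were 15.05 and 19.2, above the T47D shared median. The run of 9 at chr16:68679034-68813095 spanned CDH3 and the start of CDH1, genes of the adhesion proteins P-cadherin and E-cadherin. Runs of 9 and 7 peaks stood at chr5:172880033-172960199 and chr15:26083432-26179344.

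The genome was next divided into bins of 1 Mb. Both lists gave 30000 peaks, so counts per bin were on one scale, and the difference was taken as log2 of (SKBR3 + 1)/(T47D + 1) strong peaks. Of 2541 bins with a strong peak 1556 held at least 10 and were compared. The median difference was 0 and the SD 0.77, with a range from -3.81 to 4.09. At least 2-fold more strong peaks were found in SKBR3 in 130 bins (8.35%) and in T47D in 131 bins (8.42%). The counting interval of SKBR3's share excluded an equal split in 70 of the SKBR3 bins and 73 of the T47D bins. The SKBR3 bins held 2795 of the 30000 strong SKBR3 peaks and 1192 of its 1-line peaks, or 17.5%. Such peaks made up 42.6% of the strong SKBR3 peaks there, against 22.7% of all strong SKBR3 peaks. The T47D bins held 2486 of the 30000 strong T47D peaks and 659 of its 1-line peaks, or 16.3%. These made up 26.5% of the strong T47D peaks there, against 13.5% of all. The bins were picked by counts of strong peaks, 1-line peaks among them, so higher shares there follow in part from the choice. Most 1-line peaks, like most strong peaks, lay outside those bins.

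**Figure D4:**
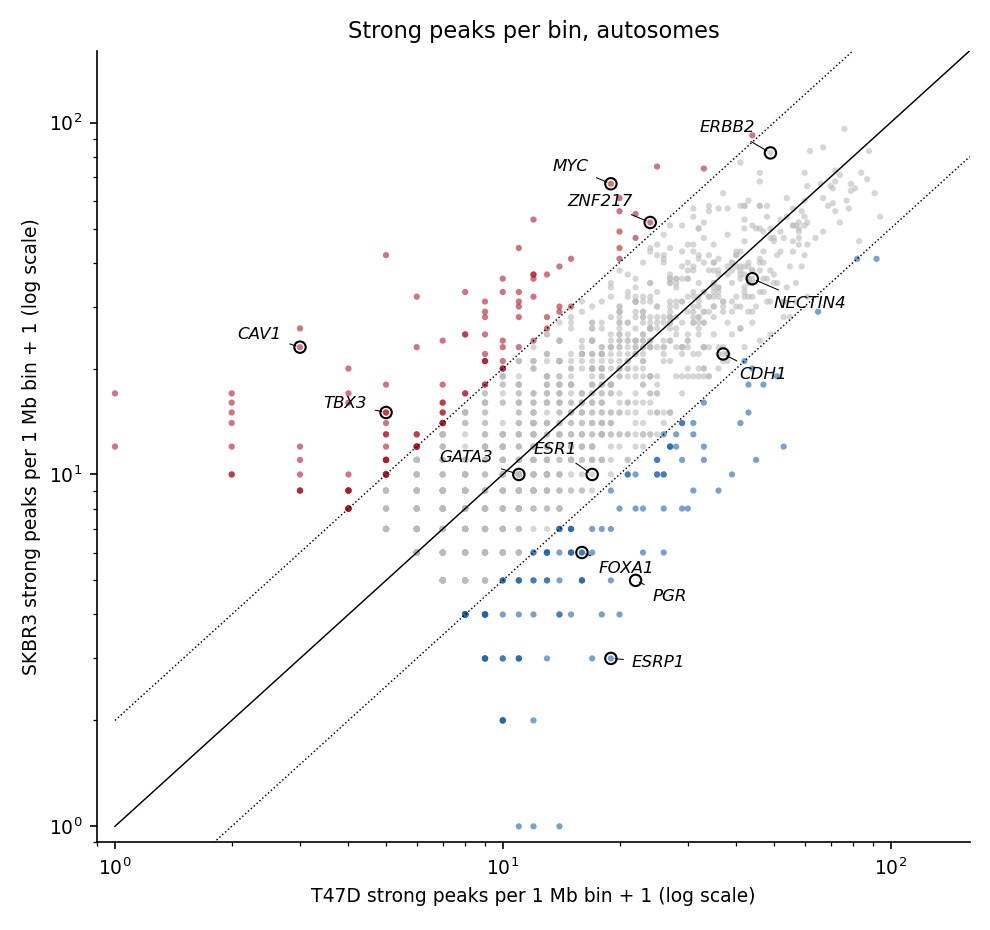
Strong peaks per 1 Mb bin in SKBR3 (vertical) against T47D (horizontal), both plus 1 on log scales, for the 1556 autosomal bins with at least 10 strong peaks; the solid line marks equal counts and dotted lines a 2-fold difference, and rings mark the loci of named genes, of which PGR and ESR1 span 2 bins. MYC (66 against 18) and CAV1 (22 against 2) lie above the upper dotted line, PGR (4 against 21) and ESRP1 (2 against 18) below the lower one, and ERBB2 (81 against 48) between the lines.

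Local background moved with these bins. It was recovered at called peaks only, from a 10 kb window without a control library, and each bin was given the median over its called peaks of any strength. Over strong peaks the median multiple was 6.48 in SKBR3 and 6.99 in T47D. Over the weaker peaks, 78561 in SKBR3 and 45390 in T47D, it was 1.08 and 1.33. The value of a bin thus depends also on how many weaker peaks were called in it. Such a window holds the peaks' own tags, so background is not independent of the peak counts. The median over all bins of the ratio of SKBR3 to T47D background, each as a multiple of its own genome-wide level, was 0.763. It was 1.32 over the SKBR3 bins and 0.513 over the T47D bins. The part of background in the bin differences was not tested.

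Chromosome 8 held SKBR3 bins and T47D bins side by side, with 19 and 14 of its 77 bins. Chromosome 17 had 19 T47D bins of 69 and 1 SKBR3 bin, in contrast to the high counts of SKBR3 around ERBB2. Chromosome 10 had 20 T47D and 13 SKBR3 bins of 87, chromosome 7 had 16 SKBR3 and 2 T47D bins of 98, and chromosome 20 had 7 and 1 of 45.

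Neighbouring bins formed stretches. The longest for SKBR3 was 117000001 to 125000000 on chromosome 8, which holds HAS2, a hyaluronan synthase, and ATAD2, a chromatin-binding ATPase. SKBR3 had 271 strong peaks in its 8 bins and T47D 64, of which 136 and 2 were called in 1 line. The local background multiple was 3.66 for SKBR3 and 1.71 for T47D. On chromosome 10, 71000001 to 75000000, the counts were 168 against 57, with 76 and 2 called in 1 line. On chromosome 7, 129000001 to 132000000, they were 82 against 20, with 37 and 0.

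The longest stretch for T47D was 53000001 to 60000000 on chromosome 17, which holds PPM1D, a phosphatase that restrains p53 signalling, and the repressor gene TBX2. T47D had 126 strong peaks in its 7 bins and SKBR3 41, but only 29 of the T47D peaks had no SKBR3 call at all, against 6 the other way. The others overlapped an SKBR3 peak, strong or weaker. On chromosome 10, 101000001 to 105000000, the counts were 137 against 45 strong peaks, with 35 and 1 called in 1 line. At the end of chromosome 14, 105000001 to 108000000, which contains the immunoglobulin heavy chain cluster, the counts were 129 against 48, with 47 and 8 called in 1 line.

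Among single bins the 10 with the largest difference toward SKBR3 were on chromosomes 8 (4 bins), 7 (2), 2, 20, 5 and 1. The first, chr2:16000001-17000000, which holds the transcription factor gene MYCN, had 16 strong SKBR3 peaks and 0 in T47D, but 5 of the 16 had no T47D call and T47D had 26 weaker peaks there. In chr8:121000001-122000000 the counts were 41 against 4, with 24 and 0 called in 1 line. In chr7:37000001-38000000 they were 16 against 1, with 14 of the 16 absent from T47D. The 10 toward T47D were on chromosomes 19 and 8 (2 each), 9, 10, 11, 4, 5 and 6. In chr19:21000001-22000000 the counts were 0 against 13, with 12 called in T47D alone of the pair, and in chr19:23000001-24000000 they were 0 against 10, all 10 without an SKBR3 call. SKBR3 had 5 and 2 peaks of any strength in these bins, T47D 24 and 26, and RKO 33 and 31.

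Genes of the receptor programmes and of common breast cancer gains and losses were then placed in the bins. There were 68 genes at 58 loci, of which 51 loci held at least 10 strong peaks. At least 2-fold more strong peaks lay in SKBR3 at 5 loci and in T47D at 7, beside 8.35% and 8.42% of all bins. With all called peaks counted, each list scaled to its total, PGR (-1.07) and CAV1 (1.47) were the only ones of these still past 2-fold. Over the 60 distinct bins of the loci 24.6% of the SKBR3 and 16.05% of the T47D strong peaks were called in 1 line, close to the 22.7% and 13.5% of all strong peaks. A bin holds other genes too, so a count is a property of the 1 Mb neighbourhood and not of the named gene.

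**Figure D5:**
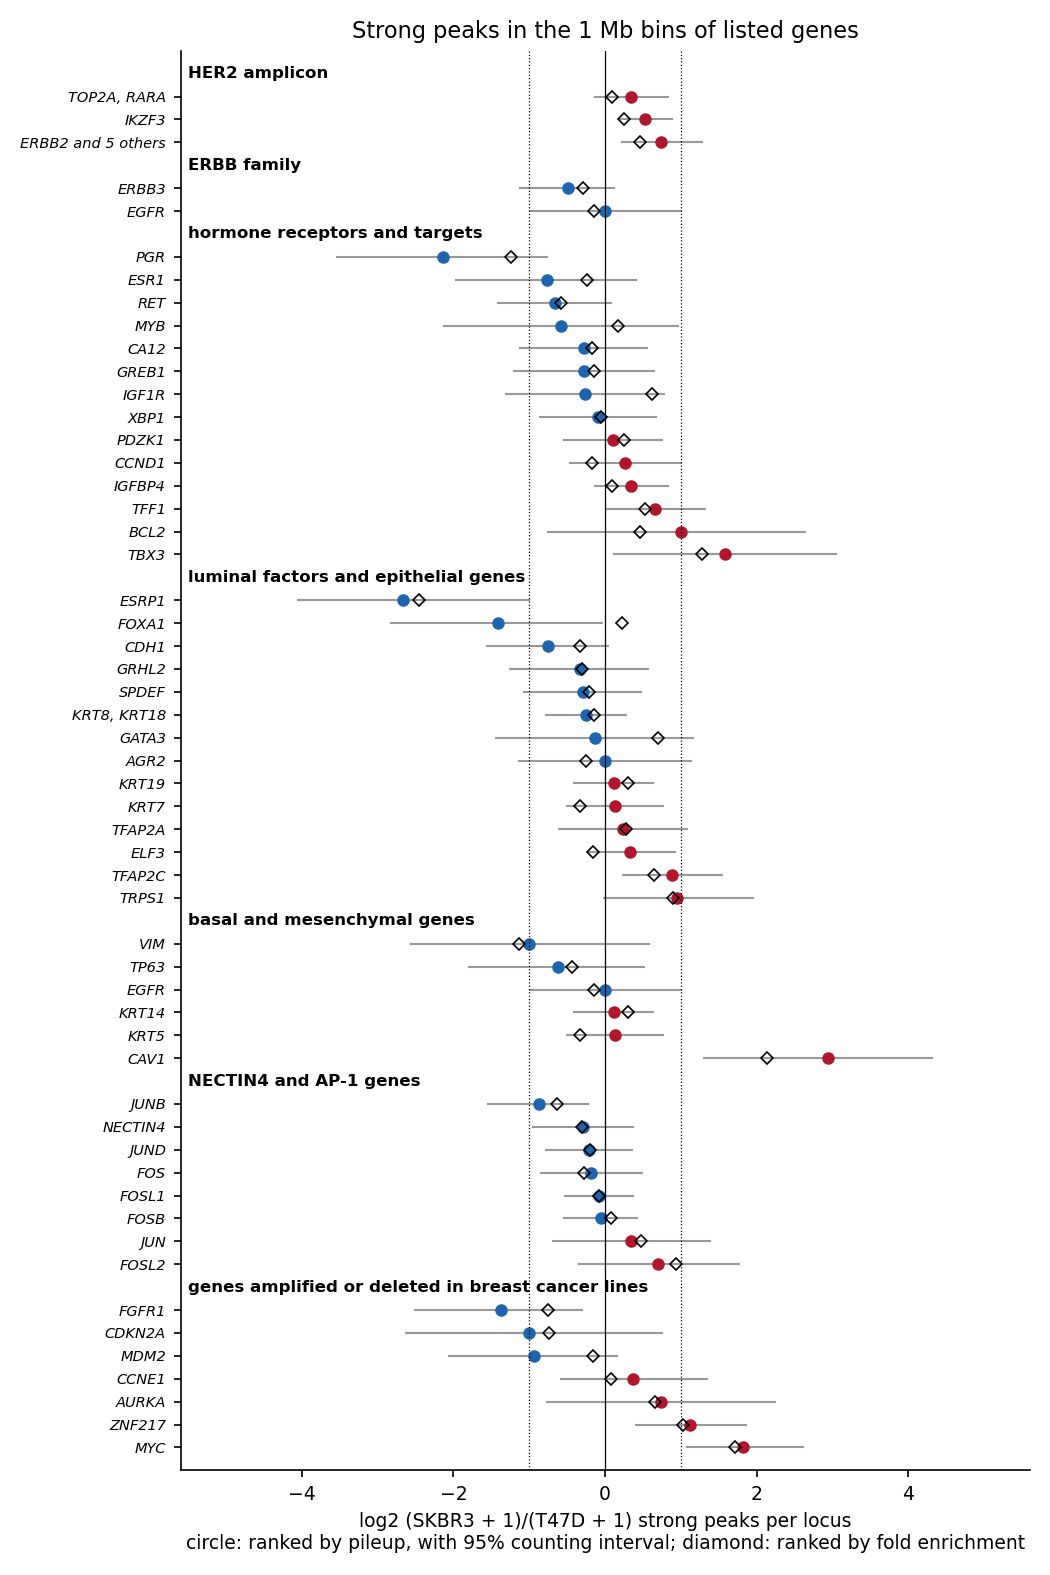
Log2 ratio of strong peaks, (SKBR3 + 1)/(T47D + 1), in the 1 Mb bins of listed genes with at least 10 strong peaks, all but 1 of the loci compared: circles are peaks ranked by pileup, red where SKBR3 has more and blue otherwise, bars are exact 95% counting intervals, diamonds are peaks ranked by fold over local background, and dotted lines mark a 2-fold difference. PGR at -2.14, ESRP1 at -2.66, MYC at 1.82 and CAV1 at 2.94 stay past 2-fold by either ranking, while FOXA1 moves from -1.42 to 0.22.

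At the HER2 amplicon SKBR3 had more strong peaks, though less than 2-fold more. The bin of ERBB2, which also holds its neighbours GRB7, STARD3, MIEN1, PGAP3 and CDK12, had 81 strong peaks in SKBR3 and 48 in T47D, a log2 ratio of 0.74. Of these, 35 and 6 were called in 1 line. Over the 2 bins that the amplicon genes span 36.4% of the SKBR3 strong peaks had no T47D call, against 22.7% of all strong peaks, and 11.4% of the T47D peaks had no SKBR3 call, against 13.5%. With the 10000 highest peaks of each list the ERBB2 ratio was 1.71, past 2-fold, and by fold over local background it was 0.46. With all called peaks it was 0.15, and the bin of TOP2A and RARA went from 0.34 to -0.23. The background multiple of the bin was 14.6 for SKBR3 and 6.54 for T47D.

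The SKBR3 peaks around ERBB2 were high, and some of them had low folds on a high floor. The highest without a T47D call, chr17:37843196-37843722, had a fold of 10.7, above the median of 9.68 for its class. Others were lower. The peak chr17:37892194-37892506 had a pileup of 83 and a fold of 4.12. At chr17:37833438-37834359 the values were 79 and 3.596, and at chr17:37896807-37897117 they were 55 and 2.81. The T47D peaks without an SKBR3 call in the bin were led by chr17:37352098-37352365, with a pileup of 38 and a fold of 9.31, well before the amplified genes. In the next bin, with TOP2A and RARA, encoding a topoisomerase and a retinoic acid receptor, the counts were 84 against 66 and the backgrounds 8.70 and 8.73. The related receptor genes ERBB3 (38 against 54) and EGFR (17 against 17) differed less than 2-fold, and the bins of ERBB4 held 7 strong peaks in all, too few to compare.

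Among the 14 hormone receptor loci 1 was past 2-fold toward T47D and 2 toward SKBR3, beside 8.42% and 8.35% of all bins. The one toward T47D was PGR, with 21 strong peaks in T47D and 4 in SKBR3, a log2 ratio of -2.14. None of the 4 SKBR3 peaks lacked a T47D call, while 12 of the 21 T47D peaks had no SKBR3 call. By textbook placement chr11:100999540-101000640 (pileup 40, fold 8.47) covers the start of PGR and chr11:100904837-100905211 (pileup 47, fold 19.8) lies at its other end. Their nearest SKBR3 summits were 32551 and 30603 bp away, and neither was called in HCT116 or RKO. The ratio stayed past 2-fold at -1.07 to -2.58 under every other ranking, list length and count of peaks tried.

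The 2 bins of ESR1 had 16 strong peaks in T47D and 9 in SKBR3, with 7 and 4 called in 1 line. The position of those peaks separated the lines more than their number. All 4 SKBR3 peaks lay between 151044830 and 151381564, far from ESR1, and 2 of them were called in both colorectal lines. The 6 highest T47D peaks lay between 151937267 and 152129020, just before and at the start of ESR1, and none was called in a colorectal line. The peak over the start, chr6:152128295-152129020, had a pileup of 27 and a fold of 10.9, with the nearest SKBR3 summit 26200 bp away. The log2 ratio of -0.77 was 0.42 with the 10000 highest peaks of each list.

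GREB1, an early target of the estrogen receptor, had nearly equal counts, 18 in SKBR3 and 22 in T47D. Of these, 11 of the 18 and 14 of the 22 were shared, while 77.3% of all strong SKBR3 and 86.5% of all strong T47D peaks were. The other 7 and 8 were called in 1 line. Among those called in 1 line, the T47D peaks chr2:11679484-11680283 (pileup 62) and chr2:11638652-11639029 (pileup 58, fold 20.5) lie just inside and before its start by textbook placement, 7071 and 7465 bp from an SKBR3 summit. The highest SKBR3 peak without a T47D call, chr2:11904518-11904839 (pileup 36, fold 19.7), lies beyond the gene. The estrogen targets XBP1 (28 against 30), a factor of secretory cells, and TFF1 (51 against 32), a secreted mucosal peptide, were within 2-fold. So were CCND1 (35 against 29), encoding cyclin D1, and RET (25 against 40), a receptor kinase. With the 10000 highest peaks of each list TFF1 and RET were past 2-fold, at 1.36 and -1.22.

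The 2 loci toward SKBR3 were BCL2, an inhibitor of cell death, with 7 against 3 strong peaks (log2 ratio 1), and TBX3, a developmental repressor, with 14 against 4 (1.58). The counting interval of SKBR3's share included an equal split at BCL2 (34.8% to 93.3%) and excluded it at TBX3 (52.4% to 93.6%). The 1-line peaks of both bins lay away from the named genes. At BCL2 they fell between 60103847 and 60194190, and the 4 highest at TBX3 between 115821409 and 115902673. By fold over local background the ratios were 0.46 and 1.28, and with all called peaks they were 0.05 and 0.73, both under 2-fold.

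Of the 14 luminal loci compared, 12 differed less than 2-fold, as did 83.2% of all bins, while 2 were past it toward T47D and 0 toward SKBR3. In their bins 24.1% of the SKBR3 and 16.6% of the T47D strong peaks were called in 1 line. GATA3, a luminal master factor, had 9 strong peaks in SKBR3 and 10 in T47D. The keratin genes KRT8 and KRT18 had 57 against 68, KRT19 65 against 60, the epithelial factor ELF3 57 against 45 and the secretory factor SPDEF 26 against 32. TFAP2C, an AP-2 factor known to drive ERBB2 transcription, had 56 against 30 (log2 ratio 0.88), and TRPS1, a GATA-type repressor of breast epithelium, 26 against 13 (0.95). Both passed 2-fold with the 10000 highest peaks, at 1.75 and 1.58.

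The 2 luminal loci past 2-fold were ESRP1 and FOXA1. ESRP1, an epithelial splicing regulator, had 18 strong peaks in T47D and 2 in SKBR3, yet 16 of the 18 overlapped an SKBR3 call of some strength. Its log2 ratio was -2.66, and -0.97 with all called peaks. FOXA1, the pioneer factor of the estrogen receptor, had 15 against 5, with 6 T47D peaks absent from SKBR3. The highest of the 6, chr14:38052667-38053237, had a pileup of 34 and a fold of 6.42 and was called in RKO. With peaks ranked by fold the FOXA1 ratio of -1.42 became 0.22, and it was 0 by q-value or with the 10000 highest peaks, so its direction depended on the ranking. Over called peaks of any strength, the background multiple at FOXA1 was 2.88 for T47D and 0.999, about the genome-wide level, for SKBR3.

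CDH1, the E-cadherin gene, was within 2-fold at 21 against 36 (log2 ratio -0.75), but 12 T47D peaks there had no SKBR3 call, against 3 the other way. With the 10000 and 20000 highest peaks of each list the ratio was -1 and -1.30, at and past 2-fold. Ranked by fold it was -0.33. The T47D peak over the start of CDH1, chr16:68770989-68771324, had a pileup of 49 and a fold of 16.1, and chr16:68738259-68738621 before it had 49 and 21.2. Both were called in HCT116 and the second also in RKO. The nearest SKBR3 summits were 5266 and 37971 bp away. SKBR3 is known to lack E-cadherin through loss of part of the gene, and lost copies and closed DNA cannot be told apart by a missing peak.

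Of 11 basal and mesenchymal loci 5 held too few strong peaks to compare, among them the genes of N-cadherin (CDH2) and of the repressors ZEB1, ZEB2, SNAI2 and TWIST1. CAV1, the caveolin gene, had 22 strong peaks in SKBR3 and 2 in T47D, the largest ratio of the list (log2 2.94), with 12 SKBR3 peaks absent from T47D. The peak in CAV1, chr7:116166141-116166593 (pileup 36, fold 15.8), was also called in HCT116 and RKO and had a T47D summit 1467 bp away. A further peak of the bin, chr7:116423757-116424175 (pileup 30, fold 7.74), lies in the receptor kinase gene MET. VIM, encoding the mesenchymal filament vimentin, had 9 in T47D and 4 in SKBR3, with its 1-line peaks away from the gene. The counting interval of SKBR3's share at VIM, 9.09% to 61.4%, included an equal split. TP63 (10 against 16) and the bins of the basal keratins KRT5 (45 against 41) and KRT14 (65 against 60) were within 2-fold.

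Counted over the strong peaks, none of the 8 loci of NECTIN4 and the AP-1 genes was past 2-fold in either direction, nor were 83.2% of all bins. NECTIN4, an adhesion molecule and the gene the series is about, had 35 strong peaks in SKBR3 and 43 in T47D, of which 5 and 8 were called in 1 line. By textbook placement a T47D peak at chr1:161044552-161044964 (pileup 19, fold 8.19) and an SKBR3 peak at chr1:161052426-161052544 (pileup 16, fold 3.99) lie in the gene. Each had a summit of the other line close by, at 1013 and 1003 bp. FOS (36 against 41), FOSB (70 against 73), FOSL1 (82 against 87) and JUND (49 against 57) were nearly even. With the 10000 highest peaks of each list the FOS ratio was 0.62, under 2-fold. FOSL2 (20 against 12) and JUN (18 against 14) had more in SKBR3. The counting intervals of SKBR3's share, 43.7% to 78.9% and 37.7% to 73.6%, included an equal split at both. JUNB showed the largest difference of the AP-1 genes, at 30 against 56 (log2 ratio -0.88). With the 10000 highest peaks of each list its ratio was -1.24, past 2-fold. Its highest T47D peaks without an SKBR3 call, such as chr19:12075442-12076296 (pileup 40, fold 15.2), lay in a zinc finger gene cluster away from JUNB.

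Of the 8 bins of genes often amplified or deleted in breast cancer, 2 were past 2-fold toward SKBR3 and 3 toward T47D, beside 8.35% and 8.42% of all bins. MYC had 66 strong peaks in SKBR3 and 18 in T47D (log2 ratio 1.82), with 37 and 1 called in 1 line. The highest, chr8:128598215-128598732 (pileup 65, fold 19.97), fell in the long run described above. ZNF217, a zinc finger oncogene of chromosome 20, had 51 against 23 (1.12), with 16 and 2 called in 1 line. Both were past 2-fold when peaks were ranked by fold, at 1.72 and 1.03, and under it with all called peaks, at 0.77 and 0.42.

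Those toward T47D included FGFR1, a growth factor receptor gene, with 25 against 9 (log2 ratio -1.38), and the cell cycle inhibitor gene CDKN2A with 7 against 3 (-1). Both were under 2-fold when peaks were ranked by fold, at -0.76 and -0.74. The counting interval of SKBR3's share at CDKN2A, 6.67% to 65.2%, included an equal split. The highest T47D peak without an SKBR3 call in the bin of CDKN2A, chr9:21995679-21995887 (pileup 19, fold 6.36), had an SKBR3 summit 664 bp away and was called in RKO. CCNE1 (21 against 16), AURKA (9 against 5) and MDM2 (10 against 20), genes of a cyclin, a mitotic kinase and the p53 ligase, were within 2-fold. With the 10000 highest peaks of each list CCNE1 was past 2-fold at 1.81 (6 of 7 peaks in SKBR3). AURKA reached 2-fold there, at 1, and MDM2 was at -0.42.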

How the data were processed

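The authors deposited 1 MACS3 peak list per library on hg19. Reads were handled with Bowtie2 2.4.1 and MACS3 3.0.0b3, per the submitters' processing notes. Per the file headers, calling used a q cutoff of 0.1, no control library, 1 tag per position and a 10 kb background window, with tags extended to 117 bp in SKBR3 and 110 bp in T47D and no shift to the cut site. The T47D file gives T45D as the name of its input, and it was used as T47D because it was deposited under that sample. The deposited columns hold pileup as signal, fold over local background as a ratio, −log10 p-values and −log10 q-values, and peak length. These are the authors' values within each library, so they ranked and described peaks. Where pileup or fold of both lines is given, the values were not scaled between libraries. Local background was compared between lines, each as a multiple of its own genome-wide level.

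Lists were joined by overlap of at least 1 bp in Python 3.11.15 with pandas 2.3.3 and numpy 2.4.6, and intervals came from scipy 1.17.1. Local background was recovered as (pileup + 1)/fold - 1 and divided by tags times fragment length over genome size. The code was tested on simulated data. Alternatives changed list length, ranking value, overlap, call threshold, bin width, bin minimum and the peaks counted.

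Named were the listed loci, except 1 that is counted in the totals but not reported here, the 10 bins of largest difference each way, the 8 strongest 1-line peaks per line, the 5 shared peaks of highest joint rank, the 5 longest runs per line and the peaks at the threshold. Stretches and 1-line peaks within loci, and MYCN, HAS2, ATAD2, PPM1D, TBX2, CDH3, ELMO1, NKD1 and MET, were picked after values were seen. The members and gene lists were chosen with earlier results of these data known. Genes were placed in hg19 bins from textbook positions, and the chromosome of all 68 listed genes matched RefSeq's GRCh38 table, whose coordinates were not used. Sequence content and motifs were not analysed here.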

Additional observations from a re-analysis of the deposited data

Results flagged for a closer look

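Chromosome X lay outside the comparisons, and it carried 3074 peaks in SKBR3 and 2068 in T47D, above the limit that a count of 0 allows. The decoy sequence of the reference, also unused, carried 902 peaks in SKBR3 and 925 in T47D.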

How the results depend on the processing

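In every alternative run for each result the share of strong peaks without a call in the other breast line was higher in SKBR3, and the colorectal share higher in the T47D class. The share of SKBR3 peaks not called in T47D, 22.7%, was 11.3% with 10000 peaks per list, 17.2% with 20000, 21.5% ranked by q, 30.9% with at least 50% of the peak covered and 20.6% with peaks within 500 bp counted as overlap. The share of T47D peaks not called in SKBR3, 13.5%, was 3.50% and 8.16% with 10000 and 20000 peaks, 10.54% by fold, 10.1% by q, 21.4% with 50% covered, 10.46% within 500 bp, 16.1% with the SKBR3 list shortened to the T47D list and 13.98% with other calls limited to a −log10 q-value of 2 or more. The colorectal share of the SKBR3 class, 19.1%, was 23.3% and 20.1% with 10000 and 20000 peaks, 12.7% with 50% covered and 21.2% within 500 bp. That of the T47D class, 36.9%, was 42.0%, 39.4%, 35.1% and 39.1% in these settings, 35.3% by fold and 39.0% with the shortened list. In alternatives chosen after seeing the data, a peak within 5000 bp counted as overlap left 10.9% of SKBR3 and 3.53% of T47D peaks without a match, and 29.9% of that T47D class had a colorectal call. Without chromosomes 8, 17 and 20 the shares were 24.2% and 15.9%, and the colorectal shares 18.4% and 35.9%.

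Bins with at least 2-fold more strong peaks, 130 for SKBR3 and 131 for T47D, numbered 75 and 76 at 2 Mb and 68 and 60 with a minimum of 20 peaks, where fewer bins were compared. T47D had 82 such bins with 10000 peaks. With all called peaks, each list scaled to its total, they numbered 79 and 28, and the cause was not tested. Of 69 distinct named bins and loci 30 were past 2-fold; 24 of them were so by fold, 25 by q, 27 and 29 with 10000 and 20000 peaks and 14 with all called peaks. FOXA1 went from -1.42 to 0.22 by fold, and the bin chr6:29000001-30000000 from -2.32 to 0.072 with all called peaks; the cause was not tested. No paired analysis was possible because each line had 1 library and no replicate numbers, and no library could be left out. Depth limits what a missing call means: T47D had more tags than SKBR3, and HCT116 was the shallowest library.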
